A study of Arabidopsis thaliana with 12 samples.

Results

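Among array probes annotated to a single Arabidopsis thaliana gene, 57 were bright and lay at similar intensity in plants grown under photosystem II-specific light (PSII light) and photosystem I-specific light (PSI light). A probe was taken if its mean deposited intensity over the 12 samples was at least 1.2, if the ranges of its 6 PSII-light and 6 PSI-light values overlapped, and if the lower of the PSII-light and PSI-light means was at least 0.8 of the higher one. Of 3439 probes, 692 were annotated to 1 gene, 103 of these were bright, 80 of the 103 overlapped, and 66 of the 80 had a ratio within the limits. Left out of the 66 were 4 genes for pentatricopeptide proteins and 5 further genes (PSBW, PSBY, PSAN, NdhS and AT3G52960), which gave the 57, or 55.3% of the bright single-gene probes. Because intensity, overlap and ratio chose the probes, their closeness between the light regimes is a description and was not tested.

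The series measured total RNA of wild-type plants of the C24 ecotype, with 6 samples from PSII light and 6 from PSI light. Deviations from the group mean were shared, in both groups, by sample 1 with 2, sample 3 with 4 and sample 5 with 6 (correlation across probes 0.468 to 0.693), so each such couple was treated as repeat measurements of 1 replicate, giving 3 replicates per group. The labels give no tissue, age, light intensity or exposure time and name no separate plants or cultures behind the replicates, so the spread between them may be technical. Summed intensity lay between 3642.89 and 3767.52 per sample, and the number of arrays limits the precision.

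Leaves use 2 photosystems in series, and light that drives one of them more than the other changes the redox state of the electron carriers between them. Such light is known to alter the expression of nuclear genes whose products work in the chloroplast, as well as of genes that work elsewhere. Transcripts that keep their level while those genes change give the setting against which such responses are read. The files used here name the genes but do not describe them: 9 of the 57 have a symbol other than their locus number, and the functions given below are background knowledge on the gene or its family, held for 38 of them. The other 19 are given by locus alone.

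**Figure D1:**
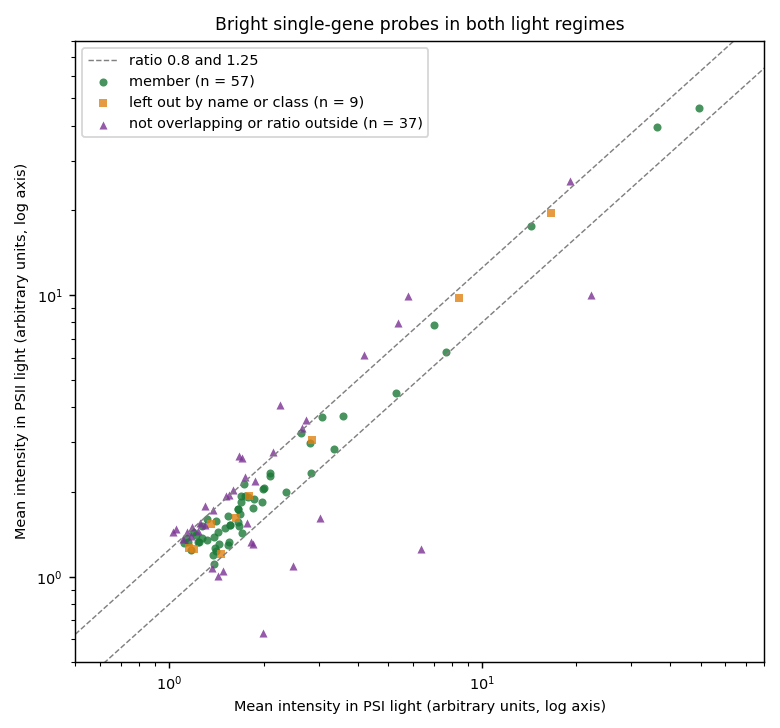
Mean deposited intensity in PSII light (vertical) against PSI light (horizontal) for the 103 bright single-gene probes, in arbitrary units on log axes, with dashed lines where one mean is 0.8 of the other. The 57 circles are the steady probes, the 9 squares those left out by name or class, and the 37 triangles those that did not overlap or lay outside the ratio limits. Most circles sit near the dim end, and 3 lie at 10 or more.

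The intensity of a spot reflects its probe and not the transcript alone, and the order of probes given here is not an order of transcript levels. Of the 57 probes, 3 had a mean intensity of 10 or more, 14 lay from 2 up to 10 and 40 lay below 2. Together they carried 5.64% of the summed intensity of the array. At the lower limit of brightness, AT5G40070 (mean 1.21), AT2G26680 (1.22) and PPDK (1.24) lay just inside, and AT2G37580 (1.199), CML30 (1.19) and AT4G27700 (1.18) just outside. At the upper limit of the ratio AT3G06870 (1.229), AT3G09080 (1.229) and AT4G17070 (1.225) lay inside, and AT2G22890 (1.256), AT5G52810 (1.263) and AT1G03810 (1.266) outside. At the lower limit AT4G08940 (ratio 0.802), AT1G21660 (0.821) and AT1G62250 (0.821) lay inside, and AT2G25870 (0.788) and AT2G47360 (0.709) outside.

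The brightest of the set was AT3G09850, which encodes a G-patch domain protein, a class that binds RNA or RNA helicases. Its lowest, median and highest intensities were 34.4, 46.95 and 57.1 in PSII light, against 43.1, 44.4 and 60.9 in PSI light. The PSII-light range enclosed the PSI-light median, and the group means were 46.3 ± 5.44 in PSII light and 49.2 ± 9.49 in PSI light (SD, n = 3). The width of the PSII-light range came from 1 replicate, since the repeat measurements of PSII-light replicate 3 were 34.4 and 57.1. That was a 1.66-fold gap, and AT3G09850 was the 1 probe of the 57 with a lower repeat under 0.8 of its higher one. The repeats of the other 5 replicates of AT3G09850 lay close together, at 40.3 and 42.05 and at 52.2 and 51.8 in PSII light, and at 43.1 and 44.25, at 43.1 and 44.6, and at 59.5 and 60.9 in PSI light. PSI-light replicate 3 therefore stood above the other PSI-light replicates in both of its measurements.

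AT2G27290, a chloroplast protein with a domain of unknown function, was at 34.6, 36.03 and 48.7 (lowest, median, highest) in PSII light, against 29.4, 31.2 and 47.7 in PSI light. Its replicate means were 35.2, 47.3 and 35.97 for replicates 1, 2 and 3 in PSII light and 31.1, 47.4 and 30.2 in PSI light. Replicate 2 was thus the high one in both light regimes, and its repeats gave 45.9 and 48.7 in PSII light and 47.1 and 47.7 in PSI light. The difference between replicate 2 and the others was larger than the difference between the light means, 39.5 ± 6.76 in PSII light and 36.2 ± 9.65 in PSI light (SD, n = 3).

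AT4G17070, a relative of the peptidyl-prolyl cis-trans isomerases that assist protein folding, was the third probe above 10. It was at 16.09, 17.3 and 20.6 (lowest, median, highest) in PSII light, against 11.7, 15.2 and 16.09 in PSI light. These ranges met only at their ends, and all 3 PSII-light replicate means (17.6, 16.4 and 18.8) lay above the 3 PSI-light ones (15.7, 15.6 and 11.9). Its log2 difference of 0.47 ± 0.15 (SE) was the largest of the set after quantile normalization between samples, and was 0.30 without that normalization and 0.24 after median centring. The repeats of PSI-light replicate 3, which set the low end, were 12.01 and 11.7.

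**Figure D2:**
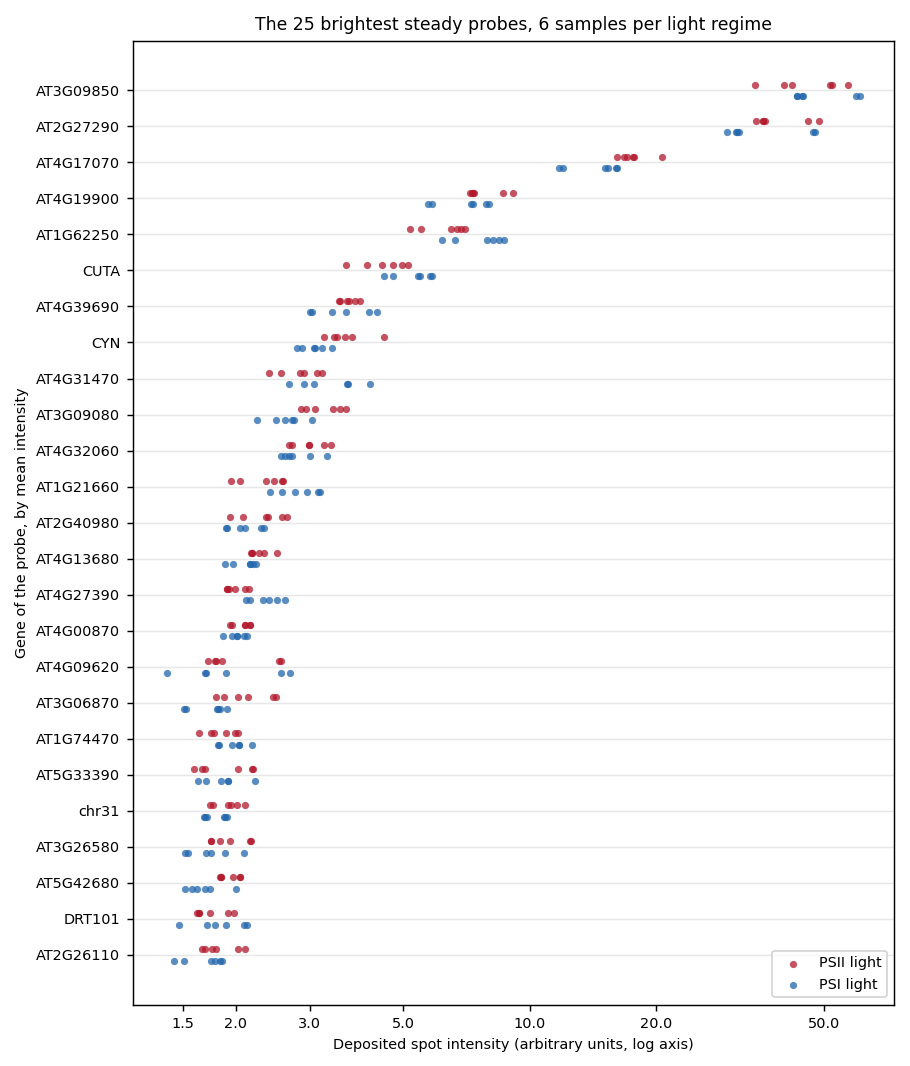
Deposited intensity of the 25 brightest steady probes in arbitrary units on a log axis, with 1 row per gene, the 6 PSII-light samples above the 6 PSI-light samples in each row and 1 point per sample. Points of the light regimes overlap in every row, as the rule requires, and AT2G27290 and AT4G09620 show a separate high cluster in both regimes.

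In carbohydrate metabolism the set held 7 genes, with log2 differences between -0.04 and 0.21 and a median of 0.01, on log2(intensity + 0.193) after quantile normalization. AT4G19900, of a glycosyltransferase family, was the brightest at 7.20, 7.35 and 9.13 (lowest, median, highest) in PSII light, against 5.73, 7.30 and 7.99 in PSI light. PSII-light replicate 2 (8.89) was its highest replicate and PSI-light replicate 3 (5.79) its lowest. DRT101, named for DNA damage repair and toleration and related to phosphoglucosamine mutases, averaged 1.75 ± 0.171 in PSII light and 1.85 ± 0.263 in PSI light (SD, n = 3). AT1G17160, a ribokinase of the pfkB type, averaged 1.56 ± 0.0399 in PSII light and 1.66 ± 0.0889 in PSI light (SD, n = 3), and its replicates kept within 1.15-fold of each other.

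ATSPS4F, a sucrose phosphate synthase, which catalyses a regulated step of sucrose synthesis in the cytosol, averaged 1.49 ± 0.196 in PSII light and 1.51 ± 0.119 in PSI light (SD, n = 3). PPDK, pyruvate orthophosphate dikinase, which makes phosphoenolpyruvate from pyruvate, averaged 1.33 ± 0.0788 in PSII light and 1.15 ± 0.0493 in PSI light (SD, n = 3). The 3 PSII-light replicate means of PPDK lay above the 3 PSI-light means, with a log2 difference of 0.18 ± 0.05 (SE). AT1G50390, another pfkB-type kinase, averaged 1.35 ± 0.0142 in PSII light and 1.32 ± 0.124 in PSI light (SD, n = 3). AT1G35510, of the O-fucosyltransferase family, had a PSII-light spread of 0.0437 and a PSI-light spread of 0.294 (SD, n = 3), with PSI-light replicate 2 high at 1.89 against 1.33 and 1.45 in replicates 1 and 3. ATSPS4F and AT1G35510 were picked after their values were seen.

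The group for tetrapyrroles and plastid lipids held 3 genes. AT1G74470, geranylgeranyl reductase, which supplies the phytyl tail of chlorophyll and of tocopherols, was at 1.63, 1.84 and 2.02 (lowest, median, highest) in PSII light, against 1.82, 1.998 and 2.19 in PSI light. HEMA3 encodes a glutamyl-tRNA reductase, the enzyme at the entry to tetrapyrrole synthesis, and was at 0.989, 1.16 and 1.43 in PSII light, against 1.13, 1.34 and 1.73 in PSI light. Their log2 differences were -0.07 ± 0.08 and -0.19 ± 0.13 (SE). AT2G46910, a fibrillin, the family of lipid-associated plastid proteins, was at 1.31, 1.47 and 1.53 in PSII light, against 1.08, 1.16 and 1.32 in PSI light. The 3 PSII-light replicate means of AT2G46910 lay above the 3 PSI-light means, with a log2 difference of 0.24 ± 0.06 (SE).

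Of the 3 genes for protein folding, AT1G74070, a cyclophilin, was at 1.35, 1.53 and 1.94 (lowest, median, highest) in PSII light, against 1.15, 1.33 and 1.46 in PSI light. AT1G21660, a DnaJ-domain protein, a class that works with Hsp70 chaperones, was at 1.94, 2.41 and 2.60 in PSII light, against 2.42, 2.86 and 3.18 in PSI light. The differences of these genes ran in opposite directions, at log2 differences of 0.26 ± 0.10 for AT1G74070 and -0.26 ± 0.12 for AT1G21660 (SE). The third gene, AT4G17070, had the log2 difference of 0.47 given above. None of the 3 passed the limma test on replicate means over all probes, as a rule built on the same contrast largely fixes. AT4G17070 did pass in the fit with the repeats as a random block, given below.

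Genes for RNA, DNA and translation made up 8 of the set, with log2 differences between -0.11 and 0.25 and a median of 0.08. AT4G00870, a bHLH transcription factor, varied least of all 57 probes. It was at 1.94, 2.11 and 2.17 (lowest, median, highest) in PSII light, against 1.87, 2.01 and 2.13 in PSI light, and its 6 replicate means had a coefficient of variation of 4.1%. AT4G09620, of the mTERF family that acts on organelle transcripts, varied most, with a coefficient of variation of 22.6%. Its replicate means were 2.54, 1.82 and 1.76 for replicates 1, 2 and 3 in PSII light, against 1.79, 2.63 and 1.54 in PSI light. The high replicate of AT4G09620 was number 1 in PSII light and number 2 in PSI light, and both repeats of each high replicate lay at 2.53 or above.

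The chromatin remodelling gene chr31, known for small RNA-directed DNA methylation, was at 1.73, 1.94 and 2.10 (lowest, median, highest) in PSII light, against 1.68, 1.79 and 1.91 in PSI light. Its ratio was 1.07 and its log2 difference 0.11 ± 0.08 (SE). AT1G62150, another mTERF gene, averaged 1.38 ± 0.0757 in PSII light and 1.13 ± 0.153 in PSI light (SD, n = 3). AT2G30320, a pseudouridine synthase, a class that modifies RNA bases, averaged 1.58 ± 0.127 in PSII light and 1.41 ± 0.0369 in PSI light (SD, n = 3). For both genes the 3 PSII-light means lay above the 3 PSI-light means. AT1G08845, of a ribosomal protein family, averaged 1.53 ± 0.299 in PSII light and 1.56 ± 0.171 in PSI light (SD, n = 3), and AT2G19870, of an RNA methyltransferase family, 1.51 ± 0.239 in PSII light and 1.67 ± 0.173 in PSI light (SD, n = 3). AT1G62150, AT2G30320, AT1G08845 and AT2G19870 were picked after their values were seen.

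The group for mitochondria and transport held 3 genes, whose ratios the rule bounds. AT4G39690, a relative of the protein that shapes inner membrane junctions in mitochondria, was at 3.51, 3.70 and 3.94 (lowest, median, highest) in PSII light, against 3.004, 3.52 and 4.33 in PSI light. Its PSI-light range enclosed its PSII-light range, and the ratio of means was 1.03. AT4G32060, of the MICU family that regulates calcium uptake by mitochondria, was at 2.68, 2.98 and 3.38 in PSII light, against 2.57, 2.70 and 3.30 in PSI light, a ratio of 1.06. AT1G02260, of a divalent ion symporter family, averaged 1.24 ± 0.103 in PSII light and 1.41 ± 0.0784 in PSI light (SD, n = 3), a ratio of 0.879.

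Among other enzymes and binding proteins, CUTA, a copper-binding protein, was at 3.66, 4.597 and 5.13 (lowest, median, highest) in PSII light, against 4.49, 5.45 and 5.84 in PSI light. CYN, cyanase, which breaks down cyanate with bicarbonate, was at 3.24, 3.56 and 4.50 in PSII light, against 2.80, 3.08 and 3.39 in PSI light. The ranges overlapped at the upper end for CUTA in PSII light and at the lower end for CYN in PSII light. LpxA, an acyltransferase whose bacterial relative makes lipid A, averaged 1.32 ± 0.115 in PSII light and 1.55 ± 0.332 in PSI light (SD, n = 3). PSI-light replicate 2 of LpxA was at 1.17, below every PSII-light replicate mean, while PSI-light replicates 1 and 3 were at 1.73 and 1.75, above every PSII-light one.

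The 3 protein kinase genes had mean intensities between 1.28 (AT2G39360) and 1.59 (AT3G57120). AT3G57120 averaged 1.64 ± 0.262 in PSII light and 1.54 ± 0.0937 in PSI light (SD, n = 3), and AT2G39360 averaged 1.32 ± 0.238 in PSII light and 1.24 ± 0.193 in PSI light (SD, n = 3). ATSIK averaged 1.42 ± 0.0836 in PSII light and 1.71 ± 0.169 in PSI light (SD, n = 3), and its 3 PSII-light means lay below its 3 PSI-light means. Of the 6 genes known by a domain alone, AT3G09080, a WD40 repeat protein, was at 2.85, 3.25 and 3.66 (lowest, median, highest) in PSII light, against 2.25, 2.67 and 3.03 in PSI light. AT4G31470, of the secreted family that includes PR-1, was at 2.40, 2.87 and 3.21 in PSII light, against 2.67, 3.37 and 4.16 in PSI light. The ratios were 1.229 for AT3G09080 and 0.845 for AT4G31470. AT5G42680 (ratio 1.14) and the tetratricopeptide-repeat gene AT3G26580 (1.107) completed the domain group among the 25 brightest.

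The 19 genes given by locus alone had log2 differences between -0.28 and 0.29, with 14 above 0 and 5 below. The brightest of them, AT1G62250, was at 5.19, 6.61 and 7.02 (lowest, median, highest) in PSII light, against 6.20, 8.03 and 8.69 in PSI light. AT2G40980, AT4G13680 and AT4G27390 followed, with PSII-light means of 2.33, 2.28 and 1.999 against PSI-light means of 2.10, 2.10 and 2.35. AT3G06870 averaged 2.13 ± 0.318 in PSII light and 1.73 ± 0.190 in PSI light (SD, n = 3). AT5G33390 had a ratio of 1.01 and AT2G26110 one of 1.09. The remaining 12 had mean intensities of at most 1.70.

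The size of difference that the data could hold was given by the limma interval of each probe. Across the 57 the standard error of the log2 difference ran from 0.05 (PPDK) to 0.28 (AT2G27290), with a median of 0.10, and the 95% interval reached a median of 0.24 to each side. The whole interval lay within a 2-fold difference for all 57 probes, but within the 0.8 limit in both directions for 16 of them. Of all 3439 probes, 3347 lay within 2-fold and 1856 within the 0.8 limit. Of the 553 bright probes of any annotation, 477 and 95 did so. By share, the 57 were inside the 0.8 limit less often than the array as a whole and more often than the 553 bright probes. Since the rule selected on the point estimate, these counts describe precision and are no test of sameness. The interval of AT2G27290 ran from -0.53 to 0.82 and that of AT3G09850 from -0.59 to 0.48, so the 2 brightest probes were among those least tightly bounded. That of AT4G00870 ran from -0.10 to 0.22 and that of AT1G17160 from -0.20 to 0.11.

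**Figure D3:**
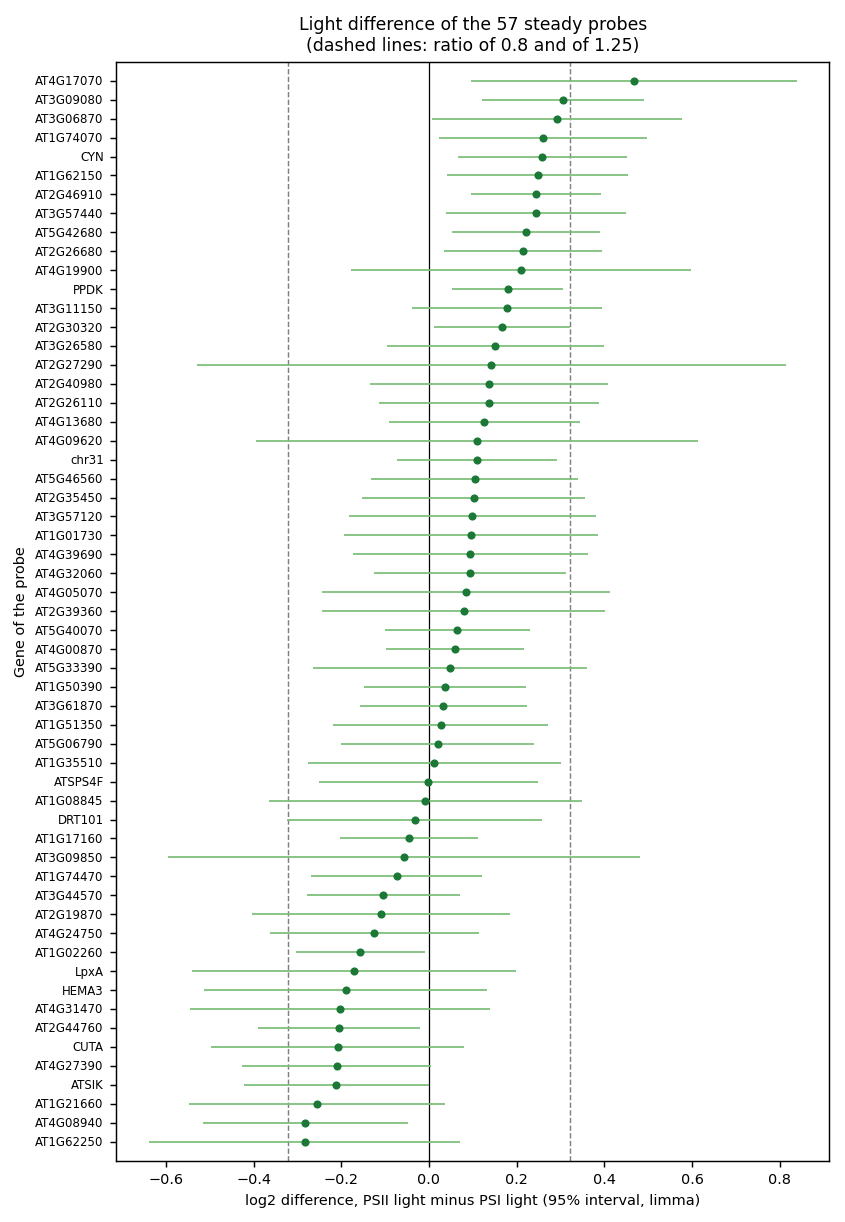
log2 difference of the 57 steady probes, PSII light minus PSI light, from limma on quantile-normalized values, with 95% intervals as bars and dashed lines where one mean is 0.8 of the other. Points run from -0.28 to 0.47, and the bars of AT2G27290, AT3G09850 and AT4G09620 are among the widest.

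Over all 3439 probes, 108 differed between the light regimes (3.14%; limma, Benjamini-Hochberg adjusted p under 0.05), and 0 of the 57 did, as a rule built on the same contrast largely fixes. At an unadjusted p under 0.05 limma counted 16 of the 57 (28.1%), against 22.3% of all probes and 41.2% of the 553 bright probes. The rule used this contrast, so nothing is read from that count. The median log2 difference was 0.08 for the 57, with 37 above 0 and 20 below, and 0.01 for all probes, with 1961 above 0 and 1478 below. With median centring the median of the 57 was -0.0039 and that of all probes -0.0010, and 28 of the 57 lay above 0 and 29 below, so the tilt towards PSII light depended on the scaling. The smallest adjusted p among the 57 was 0.0924 (limma with Benjamini-Hochberg). With all 6 samples per group and the repeats as a random block, 4 of the 57 passed, AT4G17070 (adjusted p = 0.0294), AT3G09080 (0.0311), AT2G46910 (0.00659) and AT1G62150 (0.0321), by limma with Benjamini-Hochberg, against 10.6% of all probes in that fit.

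The requirement that ranges overlap was easier to meet with 6 values per group than with 3 replicate means. For 13 of the 57 the 3 PSII-light means did not overlap the 3 PSI-light means, against 29.3% of all probes, and 9 of these were higher and 4 lower in PSII light. The 9 were AT4G17070, CYN, AT3G09080, AT2G30320, AT1G74070, AT3G57440, AT2G46910, AT1G62150 and PPDK. The 4 were AT4G27390, ATSIK, AT2G44760 and AT4G08940. In the other direction, 8 bright single-gene probes had a ratio within the limits and did not overlap. They were the pentatricopeptide genes OTP70 (ratio 1.18) and AT4G21170 (1.246), a class the rule leaves out in any case, and 6 that failed on overlap alone (AT2G03200, AT5G06930, AT3G23940, AT1G13990, AT2G46300 and AT1G50770), with ratios between 0.878 and 1.23. Over all probes the 6 columns of the regimes did not overlap for 14.7%. AT3G57440, AT2G44760 and the 8 probes outside were picked after their values were seen.

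Steady across light regimes did not mean uniform across samples. The lowest of the 6 replicate means was under 0.8 of the highest for 47 of the 57 probes, and highest over lowest had a median of 1.39-fold and a range from 1.1-fold (AT4G00870) to 1.71-fold (AT4G09620). That share was 82.5%, against 74.6% of all probes and 87.2% of the 553 bright probes of any annotation. On the log2 scale the spread between replicates of a light regime had a median SD of 0.13 over the 57, against a median SD of 0.06 between repeat measurements. The replicate SD exceeded the repeat SD for 55 of the 57, and the exceptions were AT3G09850 and PPDK. It did so for 76.5% of all probes and 91.1% of the bright ones. Over all probes the medians were 0.10 between replicates and 0.06 between repeats. The repeats were inferred as the samples whose deviations agree best across these same probes, so a smaller SD within them than between replicates is largely fixed by that choice and supports nothing.

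**Figure D4:**
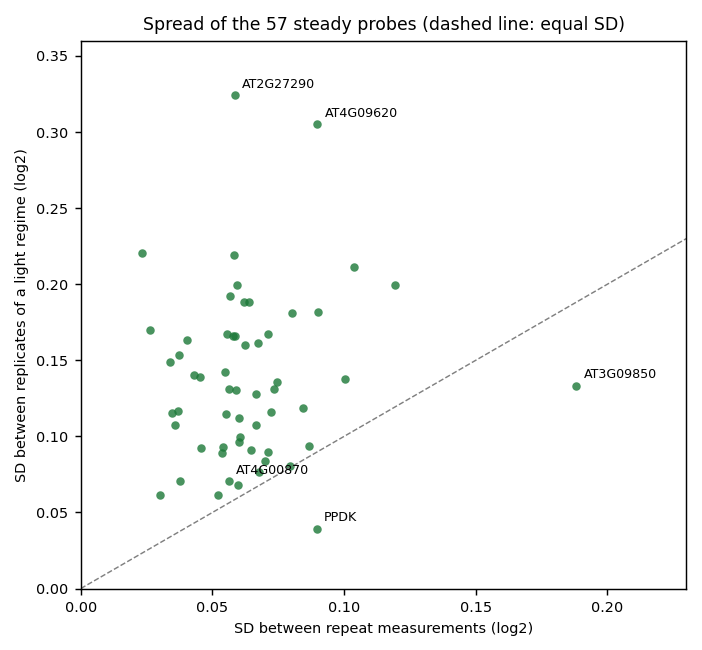
SD between replicates of a light regime (vertical) against SD between repeat measurements (horizontal), both on the log2 scale, with 1 point for each of the 57 steady probes and a dashed line where both are equal. All points but AT3G09850 and PPDK lie above the line, and AT2G27290 and AT4G09620 lie highest.

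Differences between replicate numbers 1, 2 and 3 do not use the light contrast, and they were tested with the light regime as a covariate (limma F test). After Benjamini-Hochberg adjustment 0 of 3439 probes passed (0.0%), and 0 of the 57. At an unadjusted p under 0.05 the limma F test counted 574 probes (16.7%) and 7 of the 57. These 7 were HEMA3, AT2G19870, AT3G06870, AT1G08845, ATSPS4F, DRT101 and AT4G24750, a rhodanese-domain protein, and their adjusted p ran from 0.209 to 0.293 (limma, Benjamini-Hochberg). The last gene was picked after its values were seen. The overlap part of the rule is easier to meet with a wide spread within groups, so nothing particular to the 57 is read from this count. The median replicate SD was 0.13 in the 57, 0.14 in the 553 bright probes of any annotation and 0.10 over all probes. The part of this spread in the count was not tested.

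The named profiles illustrate how replicate numbers ran in parallel in some genes and crossed in others. HEMA3 was at 1.39, 1.03 and 1.16 in PSII-light replicates 1, 2 and 3, against 1.65, 1.15 and 1.34 in PSI-light replicates 1, 2 and 3, so replicate 1 was highest and replicate 2 lowest in both. DRT101 showed the same order, with 1.95, 1.63 and 1.69 in PSII light, against 2.11, 1.58 and 1.84 in PSI light. AT3G06870 was lowest in replicate 2 and highest in replicate 3 of both regimes, at 2.08, 1.84 and 2.47 in PSII light, against 1.81, 1.52 and 1.87 in PSI light. For CUTA the orders crossed, with PSII-light replicates at 3.88, 5.05 and 4.597 against PSI-light replicates at 5.63, 4.61 and 5.64. For each of the 3 numbers, the PSII-light and PSI-light deviations from their group means had the same sign in 10 of the 57 probes. That was so for 29.6% of all probes. HEMA3 and DRT101 were not among the 10, since their signs agreed for 2 of the 3 numbers.

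**Figure D5:**
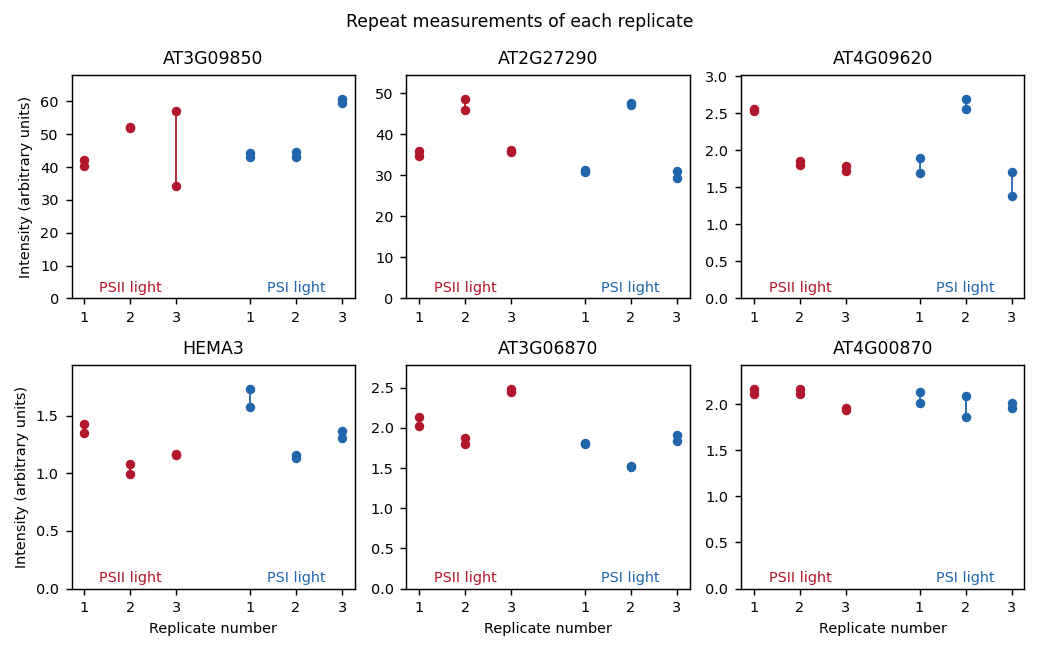
Intensity in arbitrary units of 6 steady probes by replicate number, PSII light left and PSI light right in each panel, with 2 joined points for the repeat measurements of each replicate. AT2G27290 is high in replicate 2 of both regimes, AT4G09620 in replicate 1 of PSII light and replicate 2 of PSI light, and the repeats of PSII-light replicate 3 of AT3G09850 lie apart at 34.4 and 57.1.

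Probe numbers next to each other were compared for signal, although the files do not say whether they are neighbours on the array. A listed neighbour in number with a mean intensity of 1.2 or more was present for 17 of the 57 probes (29.8%), against 20.6% of all probes. A listed neighbour brighter than the probe itself was present for 10 of the 57. Some probes had 1 listed neighbour or none, and the share over all probes is not given here. Nothing is therefore read from the 10. The share of 29.8% was not compared with that of other bright probes, and nothing is read from it either. For chr31, at 1.85, the neighbours were at 3.65 (the probe of AT4G39690) and 4.39, and for DRT101, at 1.80, the listed neighbour was at 2.66. The widest gap was that of AT4G05070, at 1.33 with a listed neighbour at 11.8. This gene was picked after its values were seen. The 3 brightest steady probes each had 1 listed neighbour, which lay below them, and the number on their other side was not listed. The part of neighbouring spots in these values was not tested.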

How the data were processed

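Total RNA of 12 samples was measured by array. For each probe the deposited table gave a linear intensity in every sample, in arbitrary units. Array type, background correction and scaling by the authors are not given in the sources used here. Probes were named from the 2016 platform annotation and, for 690 of 692 single-gene probes by Entrez identifier, the TAIR10.1 gene table. Members and lists were chosen with earlier results of these data known. The rule was applied to intensities as deposited. Pentatricopeptide genes and function groups were assigned by hand from general knowledge, since the tables describe no function (4 members matched a preset keyword); promoter and protein sequences were not used here.

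For errors and tests, log2(intensity + 0.193), with the 5th percentile of positive values as pseudocount, was quantile normalized, because column medians differed by 0.158. Repeat measurements were inferred from the values (smallest gap in correlation 0.559, minimum 0.2) and averaged. The fits used lmFit and eBayes (trend) of limma 3.58.1 in R 4.3.3 over all 3439 probes, two-sided, Benjamini-Hochberg, threshold 0.05. They were also run on simulated replicates with independent noise. That setting leaves out deviations shared between replicates of equal number, so nothing about these data is read from it. PSII-light and PSI-light replicates of equal number shared their deviations (correlations 0.323, 0.366 and 0.360). The labels number the samples alike in both groups but state no pairing. The SE, intervals and light tests come from the unpaired fit unless stated, which leaves this sharing out. A block for replicate number is an alternative. Alternatives were scaling, pseudocount, dim probes, the block, the trend, repeats as a random block (correlation 0.657), the limits of the rule and each replicate left out. Named genes were the 25 brightest, the 3 brightest per function group, those nearest the limits, and the 5 with the largest and the 5 with the smallest coefficient of variation; others are marked as picked later.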

Additional observations from a re-analysis of the deposited data

How the results depend on the processing

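The number of steady probes was 57, and 63 with median centring, 51 with quantile normalization and 44 with ranges over replicate means. It was 91 and 34 with brightness minimums of 1 and 1.5 and 31 when one mean had to be at least 0.9 of the other, by construction of these limits. Leaving out 1 replicate gave 42 (without PSI-light replicate 2) to 66 (without PSI-light replicate 3), of which 41 to 54 were among the 57. The 108 probes that differed between light regimes became 228 when samples were centred on their medians, 228 when the dimmest 25% were dropped and 365 with repeats as a random block. With 1 replicate left out, which also leaves fewer samples, they were 31, 41 and 22 without PSII-light replicates 1, 2 and 3, and 20, 140 and 28 without PSI-light replicates 1, 2 and 3. The replicate block gave 103 and left 0 of the 57 called. The count of the 57 that differed between light regimes was 0 in 12 of 13 alternatives, the exception being the random block with 4. A rule built on the same contrast largely fixes these counts, so they are no evidence of sameness. The count of probes that differed between replicate numbers, 0 on quantile-normalized values by limma, was 376 with median centring and 139 without the dimmest 25%, with 0 of the 57 in each; the cause was not tested. The sign of the log2 difference changed between scalings for 9 of the 57, none larger than 0.11 in size after quantile normalization. The median log2 difference of the 57 lay between 0.03 and 0.07 with 1 replicate left out. With 3 replicates per group, the 95% interval of the log2 difference reached a median of 0.24 to each side for the 57.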
